A study of Homo sapiens with 3 samples.

Results

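The comparison of siADAR1 #1 with siControl in Cal62 cells used 4 of the 6 RNA-seq libraries of the study, 2 of each transfection, chosen by their labels. Cal62 is a human thyroid cancer cell line, and all cells were grown in DMEM with 10% fetal bovine serum and transfected with Lipofectamine RNAiMAX. The siControl cells received the Silencer Select Negative Control #1, the siADAR1 #1 cells received the siRNA sold as s1007 against ADAR1, and the siADAR1 #2 cells, which share the same controls, received a further siRNA against ADAR1 with the number 119581. Gene levels are given as normalized counts per library, and differences as log2FC on the authors' variance-stabilized log2 scale, which flattens the changes of genes with few reads. Of the 58333 genes in the deposited table, 20858 passed a filter on low values and were tested with limma. A gene was called when its adjusted p-value was under 0.05 and its log2FC was beyond 0.5 in either direction. The data come from 1 cell line with 2 replicates per transfection, and the time from transfection to RNA isolation was not given for the libraries in the sources used here.

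ADAR1, encoded by the gene ADAR, is the adenosine deaminase that turns adenosine into inosine in double-stranded RNA. Its editing marks the cell's own double-stranded RNA, and the sensors of such RNA, among them MDA5, PKR and the OAS proteins, respond when editing is missing. Small interfering RNAs are short duplexes that cells load into Argonaute to cleave a matching transcript, so a pair of siRNAs against the same gene shares the intended target and differs in sequence.

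The libraries held between 30114840 and 50029763 reads on genes, with 49173897 and 46219651 in siControl and 50029763 and 38212544 in siADAR1 #1. At this depth, 3 reads correspond to between 2.81 and 4.39 normalized counts, which covers counting error only. Replicates differed by a median of 0.22 log2 units in siControl and 0.24 in siADAR1 #1. PAX8, a thyroid lineage factor, had 13927 and 15868 normalized counts in siControl, whereas NKX2-1 had 0 reads in every library and the genes of thyroglobulin and thyroid peroxidase had 155 and 45 reads in all libraries together. Of 16 markers of T, B and myeloid cells, CD3D, CD3E, CD2 and FCGR3A had 0 reads, and PTPRC had 16 reads in all libraries together. The summed level of this marker list ranged from 405.1 to 535.5 normalized counts in siControl and from 635.9 to 832.8 with siADAR1 #1. That of 10 endothelial markers ranged from 518.1 to 588 and from 800.2 to 854.7. Single genes held most reads of these lists, with 3345 in all libraries for CD68, and 1775 and 943 for the endothelial markers EGFL7 and ESAM. The sum of 10 fibroblast markers went the other way, from 7025 and 5690 in siControl to 4012 and 3355 with siADAR1 #1. COL1A1 held 23557 reads of that list in all libraries. The part of such cells in the results was not tested.

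ADAR (chr1:154581695-154628013 in GRCh38, minus strand) had 10906 and 11701 normalized counts in siControl, 1328 and 2246 with siADAR1 #1, and 1663 and 2928 with siADAR1 #2. Both siRNAs thus left levels far below those of both control libraries. The log2FC was -2.71 ± 0.30 (SE, n = 2 per group, adjusted p = 0.00295, limma) with siADAR1 #1 and -2.35 with siADAR1 #2, and the difference between the siRNAs was -0.35 ± 0.30 (adjusted p = 0.404). The fall of ADAR was the 79th largest of all genes tested with siADAR1 #1, and the 25th largest of the called protein-coding genes with a mean of at least 100 normalized counts.

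With siADAR1 #1, 1290 genes were upregulated and 2212 were downregulated, which is 6.18% and 10.6% of the genes tested, or 16.8% in all. In this bulk measurement, fewer cells of a type and less RNA per cell cannot be told apart. The split between directions depended on the scaling: 36.8% of the calls were upregulated with the deposited scaling, 53.3% (1951 up, 1706 down) when libraries were centred on their medians, and 47.7% (1692 up, 1852 down) after quantile normalization. Median centring moved the median log2FC of all genes from -0.02 to 0.12. All 3502 called genes had siADAR1 #1 libraries that did not overlap the siControl libraries, as did 61.2% of all genes tested. Most changes were modest: 697 of the upregulated and 1136 of the downregulated genes lay between 0.5 and 1, whereas 16 and 31 were beyond 3. Called genes were mainly protein-coding (1110 up, 1973 down, 21.5% of the 14372 tested), and 6.75% of 3983 long noncoding RNA genes were called. The counts depended on single libraries: without siControl replicate 1 they were 188 and 204, without siControl replicate 2 386 and 862, and without siADAR1 #1 replicate 1 456 and 956. Replicate 1 of siADAR1 #1, the library with the lower ADAR level, was farther from siControl than replicate 2 for 1834 of the downregulated genes (82.9%) and for 914 of the upregulated ones (70.9%). Among all genes tested, replicate 2 of siADAR1 #1 lay above replicate 1 for 54.8%. Whether the ADAR level has a part in this was not tested.

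**Figure D1:**
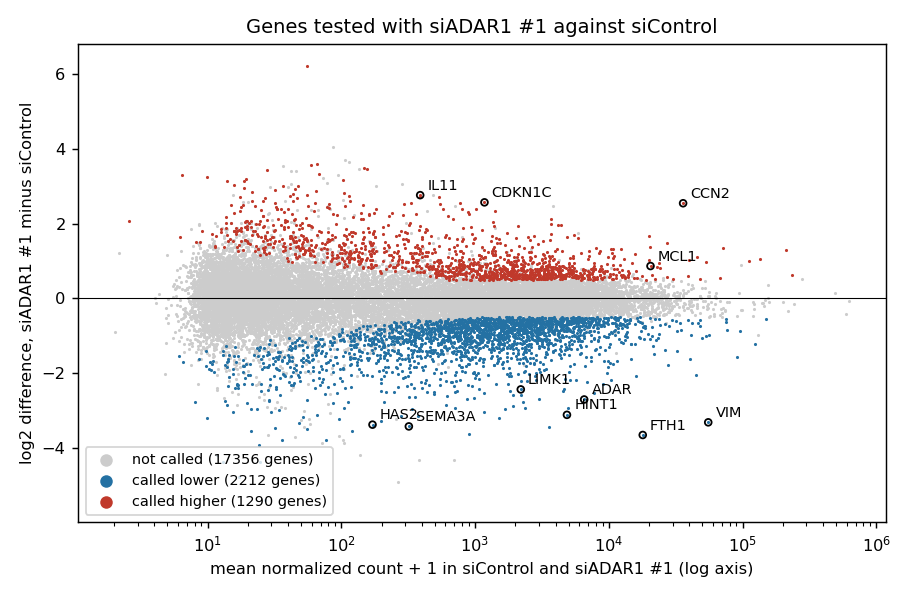
Each point is 1 of the 20858 genes tested, placed by its mean normalized count plus 1 over the siControl and siADAR1 #1 libraries (log axis) and by its log2 difference between them. Downregulated genes (2212, blue) outnumbered upregulated ones (1290, red), and FTH1 and VIM fell further than ADAR at higher levels.

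The 3502 genes were sorted by their behaviour with siADAR1 #2, for which 26.6% of the genes tested were called against the same siControl libraries. A change was taken as shared when it was also called in the same direction with siADAR1 #2, and as opposite when it was called in the other direction. It was taken as absent when the siADAR1 #2 value was not called, lay within 0.5 of 0 or had the other sign, and the siRNAs themselves differed by the same thresholds. By that test, 32.8% of all genes differed between the siRNAs. Absent changes were the largest class, with 512 upregulated and 931 downregulated genes (41.2% of the calls). A further 373 and 711 were shared (31%), 135 and 189 were opposite (9.25%), and 270 and 381 met none of these definitions and were undecided (18.6%). The absent genes had a median log2FC of 0.94 and -1.06 with siADAR1 #1, and of -0.08 and 0.09 with siADAR1 #2. These classes use the siADAR1 #1 libraries that also made the calls, so the siADAR1 #1 values within a class are a description.

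**Figure D2:**
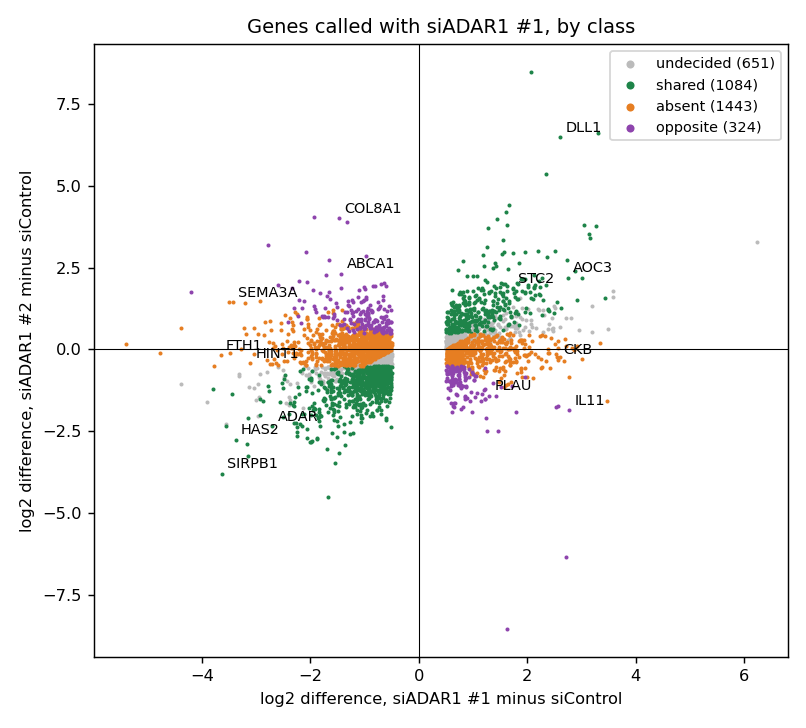
Each point is 1 of the 3502 genes called with siADAR1 #1, placed by its log2 difference from siControl with siADAR1 #1 (horizontal) and siADAR1 #2 (vertical). Genes that met no definition (651) are marked undecided, absent changes (1443 genes, orange) lie along the horizontal axis, and COL8A1 and IL11 lie in opposite corners of the opposite class (324 genes, purple).

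The largest downregulated genes included several that stayed near the control level with the other siRNA. FTH1 (chr11:61959718-61967634), which encodes the heavy chain of the iron store ferritin, had 31170 and 34364 normalized counts in siControl, 1377 and 4863 with siADAR1 #1, and 26686 and 31708 with siADAR1 #2. Its log2FC was -3.66 ± 0.47 (adjusted p = 0.00398), and it was not called with robust eBayes or without siControl replicate 1. FTH1 has many processed pseudogenes, so its reads could be split between copies. HINT1, a nucleotide hydrolase, had 8968 and 8408 normalized counts in siControl and 742 and 1339 with siADAR1 #1, against 6467 and 6533 with siADAR1 #2. The log2FC of HINT1 was -3.12 ± 0.24 (adjusted p = 0.0019), and the siRNAs differed by -2.70 ± 0.24. BIN1, which bends membranes during endocytosis, had the smallest adjusted p-value of all genes (0.00148), with 1978 and 2161 normalized counts in siControl, 279 and 221 with siADAR1 #1 and 1790 and 1926 with siADAR1 #2. The Rab GTPase-activating protein gene TBC1D16 fell by 3.20 on the log2 scale and the tyrosine kinase gene ABL1 by 2.30, with siADAR1 #2 values of 0.47 and -0.26.

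At smaller sizes, genes with no call for siADAR1 #2 included FARP1, a guanine nucleotide exchange factor, at -1.66, COPS6, a subunit of the COP9 signalosome, at -1.42, and SYNE2, which links the nucleus to the actin cytoskeleton, at -0.99. Each had siADAR1 #2 values between -0.43 and 0.02. COPS6 was lower with siADAR1 #2 too, at -0.43 (adjusted p = 0.0304, limma), and was classed absent because this is within 0.5. VIM, the intermediate filament vimentin of mesenchymal cells, was among the most abundant transcripts and went from 105253 and 92977 normalized counts in siControl to 5464 and 17949 in siADAR1 #1. With siADAR1 #2 it had 50998 and 66855, and its value of -0.76 passed neither the definition of shared nor that of absent (adjusted p = 0.255). The change of VIM with siADAR1 #1 was -3.32 ± 0.46 (adjusted p = 0.00457) and, as for FTH1, was not called with robust eBayes or without siControl replicate 1.

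A short word in the 3′ untranslated region (3′ UTR) was more frequent among the downregulated genes, though 192 of the 1966 with a 3′ UTR held it (9.77%). A 3′ UTR of at least 20 bases was found in GENCODE 44 for 14273 of the genes tested, and all hexamers present in at least 200 of them were ranked by the difference in median log2FC between the genes with and without the word. Of these 4083 words, AACCGC stood first, so it was chosen for its values and has no test. The 683 genes with it in their 3′ UTR (4.79%) had a median log2FC of -0.31 with siADAR1 #1, against -0.05 for the other genes, and 28.1% of them were downregulated, against 13.05%. With siADAR1 #2 the medians were -0.05 and -0.08. The word was in the 3′ UTR of 11.8% of the absent downregulated genes, 7.51% of the shared downregulated genes and 2.28% of the absent upregulated genes. The next word was CCGCCG, and GC content moved with the result: the median GC content of the 3′ UTRs was 47.05% for absent downregulated genes, 41.5% for shared ones and 40.7% for absent upregulated ones. The values that chose the word are given here by GC content and length, as a description. With the 3′ UTRs cut into 5 equal groups by GC content, the medians of the genes with and without AACCGC were closest in the middle group, at -0.14 and -0.04, and were -0.33 and -0.03 where GC was lowest and -0.41 and -0.14 where it was highest. In 5 groups by length they were -0.63 and -0.05 for 949 to 1792 bases, and -0.17 and -0.03 for the longest 3′ UTRs, which held 313 of the 683 genes with the word. The part of GC content and length in the result was not tested. ADAR held AACCGC once in its coding sequence and not in its 3′ UTR. The siRNA sequences are not in the files used here, and whether the word matches an siRNA was not tested.

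To show where the word lies, it is given in 6 absent downregulated genes with large falls. All 6 hold it and have a siControl mean of at least 200 normalized counts. Genes in part of the genome were left out before this choice, so these need not be the largest falls. Each line gives 30 bases of the 3′ UTR of the canonical transcript, read on the gene's strand in GRCh38 from GENCODE 44, with the hexamer in capitals.
TBC1D16 (chr17:79938510-79938539, minus strand): ctcgtgcctttgAACCGCtgtgtttgggag
HINT1 (chr5:131159310-131159339, minus strand): aaataattttaaAACCGCatacataataaa
CMIP (chr16:81709819-81709848, plus strand): gaagacgtttgcAACCGCgacaaaataact
ZNF469 (chr16:88440010-88440039, plus strand): gaactgggaagaAACCGCccctgtgccagc
C7orf50 (chr7:997034-997063, minus strand): tacctgtgcagaAACCGCctctgtggctgc
NRP1 (chr10:33179366-33179395, minus strand): tatactgctgacAACCGCaacaacaaaaac
The log2FC with siADAR1 #1 was -3.20 for TBC1D16, -3.12 for HINT1, -2.97 for CMIP, -2.76 for ZNF469, -2.66 for C7orf50 and -2.59 for NRP1, while with siADAR1 #2 these genes lay between -0.48 and 0.48. Of the 12 protein-coding genes with the largest falls by the naming rule, 3 held the word in their 3′ UTR, and FTH1, SEMA3A and VIM did not.

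The word at the other end of the ranking was GACGTA, which was also chosen for its values and has no test. The 663 genes with it in their 3′ UTR (4.645%) had a median log2FC of 0.11 with siADAR1 #1 and 0.06 with siADAR1 #2. Of them, 18.25% were upregulated with siADAR1 #1, against 7.24% of the others. Their 3′ UTRs were longer, with a median of 3253 bases against 1274. In the group of the longest 3′ UTRs, which held 334 of the 663 genes, the medians with and without it were 0.05 and -0.05. The part of length was not tested. Of the 12 protein-coding genes with the largest rises by the naming rule, 0 held the word. It was in the 3′ UTR of 14.4% of the shared upregulated genes and 2.70% of the shared downregulated genes. Both comparisons use the same siControl libraries, so these values are not independent.

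Many cell adhesion, guidance and cytoskeletal genes were downregulated, with a mixture of shared and absent changes. Of 69 genes of the actin cytoskeleton and focal adhesions, 24 were downregulated and 1 was upregulated, with a median of -0.16 beside -0.02 for all genes, and 13 of the falls were shared and 9 absent. Without siControl replicate 1, 8 of these genes were downregulated, and in the fit with a replicate block 3 were upregulated. LIMK1, the kinase that inactivates cofilin, had 3845 and 3558 normalized counts in siControl, 570 and 813 with siADAR1 #1, and 4454 and 4391 with siADAR1 #2. The falls of LIMK1 (-2.44 ± 0.17, adjusted p = 0.00167), of the Arp2/3 subunit gene ARPC1A (-2.20) and of the nonmuscle myosin gene MYH10 (-1.08) were absent with siADAR1 #2. ZYX, which encodes the focal adhesion protein zyxin, fell with both siRNAs (-1.35 and -1.08). Called members made up 36.2% of the actin list, beside 16.8% of all genes tested and 21.5% of the protein-coding ones. For the lists that follow the share was 34.6% for semaphorins, plexins and neuropilins, 37.1% for collagens and 21.9% for integrins and laminins. The last is near that of the protein-coding genes.

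Of 26 semaphorin, plexin and neuropilin genes, whose products steer axons and migrating cells, 9 were downregulated and 0 upregulated (median -0.40), 5 of them absent with siADAR1 #2, and 2 were downregulated without siControl replicate 1. SEMA3A, a secreted guidance ligand, had 588 and 541 normalized counts in siControl and 18.7 and 128 with siADAR1 #1, but 1406 and 1680 with siADAR1 #2. Its log2FC of -3.43 ± 0.69 (adjusted p = 0.0146) was not called without either siControl library. Its receptor gene NRP1 (-2.59), SEMA3F (-1.98) and PLXNA1 (-1.06) fell in the same class, and SEMA6B (-2.51) fell with both siRNAs. GPC6, a heparan sulfate proteoglycan, had 116 and 85.7 normalized counts in siControl, 2.81 and 13.8 with siADAR1 #1, and 315 and 245 with siADAR1 #2.

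Among 35 collagens and their processing enzymes, 11 were downregulated and 2 upregulated (median -0.46), and 7 of 32 integrins and laminins were downregulated (median -0.29). The falls numbered 2 in each list without siControl replicate 1, and 6 and 3 without siADAR1 #1 replicate 1. COL4A5 (-1.91) and LOXL2 (-1.30), a crosslinking enzyme, were shared, whereas COL18A1 (-1.72), the source of endostatin, was absent. HAS2, which makes hyaluronan, had 244 and 378 normalized counts in siControl, 17.8 and 40.2 with siADAR1 #1 and 22.7 and 79.1 with siADAR1 #2. Other large shared falls were SIRPB1 (-3.63), a signal-regulatory protein, TMEM158 (-3.16) and PDPN (-2.24), the membrane mucin podoplanin.

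Cell cycle genes fell with siADAR1 #1, and most of these falls were shared. Of 28 genes for origin licensing and loading of the replisome, 11 were downregulated and 0 upregulated, all 11 shared, with a median of -0.37 against -1.12 with siADAR1 #2. MCM5, a subunit of the replicative helicase, had 6819 and 6316 normalized counts in siControl, 1767 and 2712 with siADAR1 #1 and 2758 and 3176 with siADAR1 #2. MCM5 fell by 1.58 on the log2 scale, further than MCM2 (-0.93) and MCM6 (-0.74), and was not called without siControl replicate 1. Of 42 genes of homologous recombination and the Fanconi anemia pathway, 14 were downregulated, 10 of them shared. RAD50 of the break-sensing MRN complex was an exception, with 4304 and 4030 normalized counts in siControl, 1723 and 2159 with siADAR1 #1 and 4431 and 4596 with siADAR1 #2. Of 46 kinetochore and centromere genes, 15 were downregulated and 3 upregulated, 11 of the falls being shared. The downregulated genes of the origin, recombination and kinetochore lists numbered 0, 0 and 1 without siControl replicate 1, 4, 4 and 5 without siControl replicate 2, and 5, 4 and 6 without siADAR1 #1 replicate 1. CENPB, which binds centromeric satellite DNA, fell by 2.17 with siADAR1 #1 and lay at -0.01 with siADAR1 #2.

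The regulators of the cycle moved in both directions, with 10 of 37 cyclins, CDKs and their regulators downregulated and 4 upregulated, against 2 and 0 without siControl replicate 1, 4 and 0 without siControl replicate 2, and 6 and 3 without siADAR1 #1 replicate 1. MYBL2, an activator of G2/M genes, fell with both siRNAs, by 1.82 with siADAR1 #1, and E2F1, which drives S phase genes, fell by 2.02. The CDK inhibitor genes moved apart: CDKN2C, which encodes p18, fell by 1.61, whereas CDKN1C, which encodes p57, rose. CDKN1C had 417 and 217 normalized counts in siControl, 2968 and 1098 with siADAR1 #1, and 373 and 343 with siADAR1 #2. The rise of CDKN1C (2.57 ± 0.46, adjusted p = 0.00979) was absent with siADAR1 #2, and was not called without a trend or without either siControl library. CCNE1, the cyclin of S phase entry, rose by 0.81 and was also absent with siADAR1 #2, where it lay at 0.00. Called members made up 39.3% of the origin list, 33.3% of the recombination list, 39.1% of the kinetochore list and 37.8% of the cyclin list. The share was 16.8% for all genes tested and 21.5% for the protein-coding ones.

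**Figure D3:**
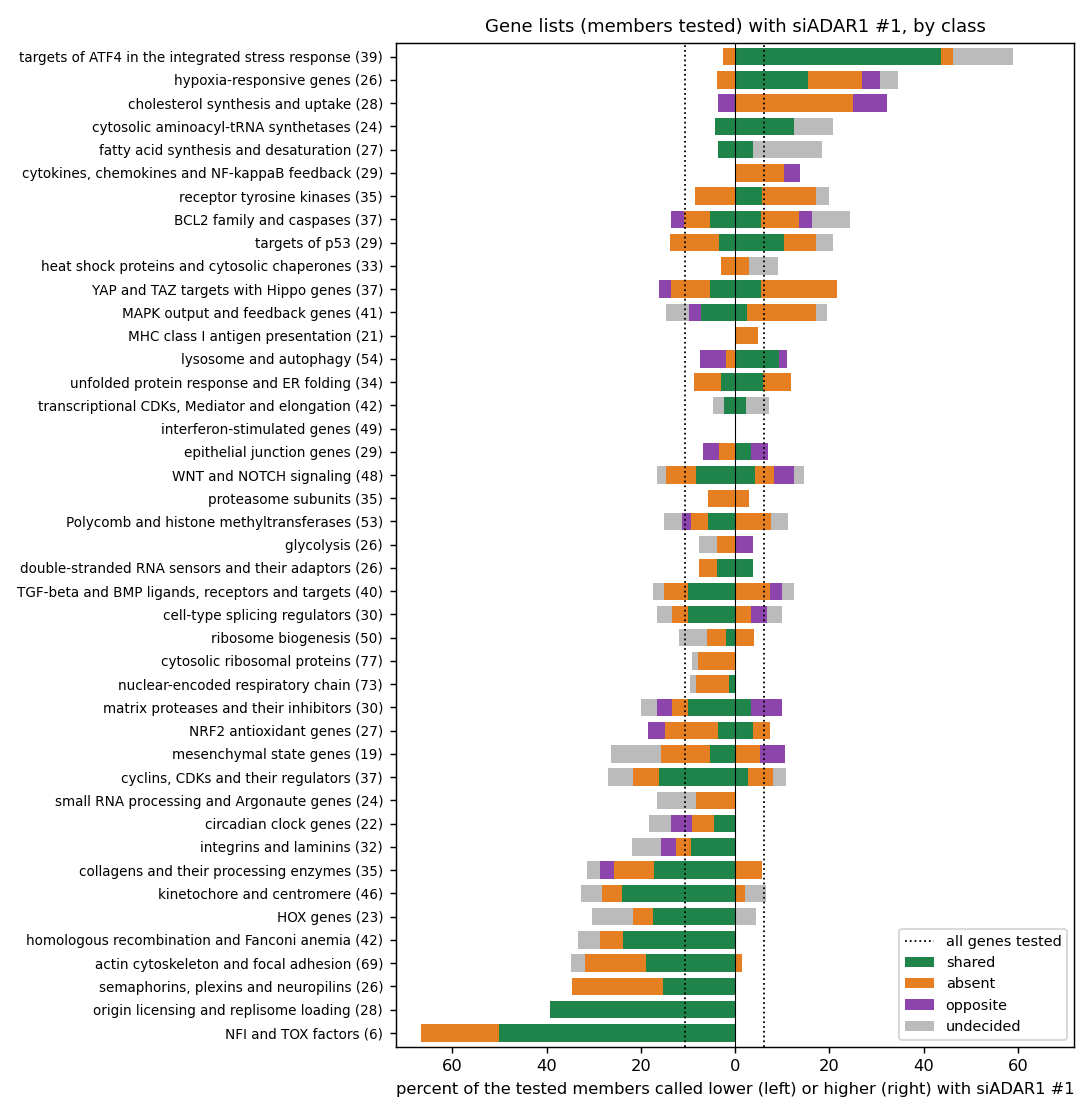
For each gene list, with the number of members tested in brackets, the bars give the percent of members downregulated (left) and upregulated (right) with siADAR1 #1, coloured by their class with siADAR1 #2. Dotted lines mark all genes tested (10.6% down, 6.18% up), and the targets of ATF4 and the origin licensing genes reach furthest beyond them among lists with over 6 members, mostly with shared changes.

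The upregulated list that reached furthest was that of the targets of ATF4, the transcription factor of the integrated stress response, which raises amino acid synthesis, transport and stress effectors. Of 39 members, 23 were upregulated and 1 was downregulated, with a median of 0.57 with siADAR1 #1 and 0.79 with siADAR1 #2, and 17 of the rises were shared. The rises numbered 12 without siControl replicate 1 and 14 without siControl replicate 2. The stanniocalcin gene STC2 had 1770 and 1651 normalized counts in siControl, 5438 and 5982 with siADAR1 #1 and 6747 and 5752 with siADAR1 #2. TRIB3, a pseudokinase that feeds back on ATF4, had 1258 and 1346 in siControl, 3202 and 3487 with siADAR1 #1, and 3224 and 3435 with siADAR1 #2. The siRNAs thus gave almost the same level of TRIB3, with a difference of 0.01 ± 0.12, and the rise with siADAR1 #1 was 1.36 ± 0.12 (adjusted p = 0.00199). ASNS (1.55), asparagine synthetase, DDIT4 (2.35), an inhibitor of mTORC1, VLDLR (2.14), a lipoprotein receptor, and ATF3 (2.27), a stress transcription factor, rose with both siRNAs. CEBPB was the member that fell, by 0.98, and it lay at 0.62 with siADAR1 #2.

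The promoters of the ATF4 targets are shown for a motif to which ATF4 binds as a dimer with C/EBP proteins, TGATGCAA, searched on both strands in 250 bases before and 50 after each RefSeq start (GRCh38.p14). A promoter was found for 31 of the tested list members, and 6 of them held the motif, 4 of the 19 upregulated ones with a promoter and 2 that were not called. The motif was in 0.866% of the 35116 promoters searched. That share counts each start, whereas a list member was counted by gene when any of its starts held the motif. The shares are therefore in unlike units. Each line gives 30 bases around it on the gene's strand, with the motif or its reverse complement in capitals, for CHAC1, CEBPG and JDP2, which were upregulated, and for SLC1A5, which was not called. These genes were chosen after their values were seen.
CHAC1 (chr15:40953251-40953280, plus strand): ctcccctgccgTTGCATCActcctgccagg
CEBPG (chr19:33374060-33374089, plus strand): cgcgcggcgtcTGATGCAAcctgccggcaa
JDP2 (chr14:75427995-75428024, plus strand): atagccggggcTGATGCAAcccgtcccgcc
SLC1A5 (chr19:46784893-46784922, minus strand): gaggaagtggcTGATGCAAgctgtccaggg
CHAC1, which degrades glutathione, had 191 and 251 normalized counts in siControl and 905 and 1161 with siADAR1 #1 (2.22 ± 0.21). JDP2, a repressor of the AP-1 family, rose by 1.91 and CEBPG, a partner of ATF4, by 0.81, while the amino acid transporter gene SLC1A5 was at 0.29. A match is a description of letters in these windows.

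Several cholesterol genes rose with siADAR1 #1, and 0 of these rises were shared with siADAR1 #2. Of 28 genes for cholesterol synthesis and uptake, 9 were upregulated and 1 was downregulated, with a median of 0.30 with siADAR1 #1 and -0.07 with siADAR1 #2. Of the 9 rises, 7 were absent and those of CYP51A1 and SQLE were opposite, and with median centring 14 genes rose. HMGCS1, the synthase ahead of the rate-limiting reductase, had 6703 and 6070 normalized counts in siControl, 14172 and 15595 with siADAR1 #1, and 9474 and 7287 with siADAR1 #2 (1.22 ± 0.15, adjusted p = 0.00324). INSIG1, which holds SREBP in the endoplasmic reticulum, rose by 1.33 and MSMO1, a sterol oxidase, by 0.94. ABCA1, the transporter that exports cholesterol, went the other way, with 1379 and 933 normalized counts in siControl, 433 and 406 with siADAR1 #1 and 6514 and 4876 with siADAR1 #2. The called share was 35.7% for the cholesterol list and 61.5% for the ATF4 list, beside 16.8% of all genes tested and 21.5% of protein-coding ones.

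Further rises absent with siADAR1 #2 were large for single genes. CKB, brain-type creatine kinase, had 102 and 84.7 normalized counts in siControl, 574 and 551 with siADAR1 #1 and 73.7 and 74.7 with siADAR1 #2. The rise of CKB was 2.56 ± 0.22 (adjusted p = 0.00199). KIT, the receptor of stem cell factor, had 151 and 42.8 in siControl, 625 and 363 with siADAR1 #1, and 78.2 and 107 with siADAR1 #2, and its rise was not called without siControl replicate 2 or without siADAR1 #1 replicate 1. EFNB3 (2.41), an ephrin ligand, RBP7 (2.25), a retinoid-binding protein, and H2BC4 (2.71), a histone H2B gene with near-identical copies between which reads could be split, were in the same class. G3BP2, a stress granule protein, rose by 1.31 and CYRIB, a regulator of Rac1, by 1.63. With siADAR1 #2, G3BP2 lay at -0.37 (adjusted p = 0.0436, limma). CYRIB was higher with siADAR1 #2 too, at 0.48 (adjusted p = 0.019, limma), and was classed absent because this is within 0.5. MCL1, an antiapoptotic member of the BCL2 family, rose by 0.87 from 13932 and 15119 normalized counts to 26912 and 26061.

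Genes that respond to growth factor signaling changed in both directions with siADAR1 #1. In the MAPK and receptor tyrosine kinase lists, 34.1% and 28.6% of the members were called, beside 16.8% of all genes tested and 21.5% of protein-coding ones. Of 41 MAPK output and feedback genes, 8 were upregulated and 6 downregulated, with a median of 0.24 against -0.33 with siADAR1 #2, and 6 of the rises were absent with siADAR1 #2. The rises numbered 2 without siControl replicate 1 and 4 without siControl replicate 2, and the falls 0 and 3, and 1 without siADAR1 #1 replicate 1. The phosphatase gene DUSP1 had 1493 and 1126 normalized counts in siControl, 4907 and 3436 with siADAR1 #1, and 1194 and 894 with siADAR1 #2. EGR2 (2.25) and JUNB (1.30), both immediate early transcription factors, were in the same class. Of 35 receptor tyrosine kinases, 7 rose and 3 fell, with 3, 2 and 3 rises without siControl replicate 1, siControl replicate 2 and siADAR1 #1 replicate 1: MET rose with both siRNAs (1.67 and 1.43), whereas EGFR (-1.19) and IGF1R (-1.04) fell with siADAR1 #1 and were absent with siADAR1 #2.

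Of 37 YAP and TAZ targets and Hippo genes, 8 rose and 6 fell, and 4 rose without any 1 of siControl replicate 1, siControl replicate 2 and siADAR1 #1 replicate 1. CCN2, a matricellular growth factor, rose from 12538 and 8186 normalized counts to 77708 and 45352, with 34819 and 22102 with siADAR1 #2. NUAK2, a kinase, rose with both siRNAs (2.39 and 1.24), whereas AMOTL2 rose by 1.38 with siADAR1 #1 and was absent with siADAR1 #2. The called share was 37.8% for the YAP and TAZ list and 38.5% for the hypoxia list that follows. Of all genes tested 16.8% were called, and of the protein-coding ones 21.5%. Of 26 hypoxia-responsive genes, 9 rose and 1 fell (median 0.35), among them the peptide hormone gene ADM (1.38), which was shared, and P4HA1 (0.81), a collagen hydroxylase, which was absent with siADAR1 #2. These rises numbered 2 without either siControl library and 5 without siADAR1 #1 replicate 1.

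Genes of protein synthesis and respiration showed few changes. Of 77 cytosolic ribosomal protein genes 7 fell and 0 rose, below the 10.6% of all genes that were downregulated, and the median of the list, -0.11, turned to 0.03 with median centring. Of those 7 genes, 6 were absent with siADAR1 #2, among them RPL28, with 16148 and 14740 normalized counts in siControl, 3168 and 6909 with siADAR1 #1 and 18733 and 17889 with siADAR1 #2, and RPL32 (-1.41). Of 73 nuclear-encoded respiratory chain genes, 7 fell and 0 rose, led by COX5A (-1.20). Without siControl replicate 1, 0 genes of both lists were called. Ribosomal protein genes also have many pseudogenes. Of 27 NRF2 antioxidant genes, 2 rose and 5 fell, among which TKT (-1.57), a transketolase of the pentose phosphate pathway, fell with siADAR1 #1 and was absent with siADAR1 #2. These calls were 25.9% of the NRF2 list, beside 16.8% of all genes tested and 21.5% of the protein-coding ones.

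Several transcription factor genes of development fell. Of 6 NFI and TOX genes, 4 fell (median -1.27), with NFIA, NFIC (-1.18) and TOX2 (-1.98) shared, and NFIX at -1.36 absent. Of 23 HOX genes, 7 fell and 1 rose (median -0.98), with 0, 1 and 2 falls without siControl replicate 1, siControl replicate 2 and siADAR1 #1 replicate 1. With the filter at 50 normalized counts the median of the HOX genes was -0.57. The summed level of the 39 HOX genes of the list was 4815 and 4880 normalized counts in siControl and 4068 and 4770 with siADAR1 #1. HOXB5 had 108 and 92.8 normalized counts in siControl, 22.4 and 17.6 with siADAR1 #1 and 14.7 and 23.4 with siADAR1 #2. SNAI2, a repressor that marks mesenchymal cells, fell by 2.54 and lay at 0.59 with siADAR1 #2. The called share was 66.7% for the 6 NFI and TOX genes and 34.8% for the HOX list. It was 16.8% for all genes tested and 21.5% for the protein-coding ones.

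A smaller class of genes moved in opposite directions. IL11, a cytokine of the IL-6 family, had 82.8 and 114 normalized counts in siControl, 659 and 695 with siADAR1 #1 and 17 and 36.6 with siADAR1 #2, so the control libraries lay between those of the siRNAs. The difference between the siRNAs was 4.62 ± 0.36 (adjusted p = 0.000186). PLAU, the protease urokinase, had the same order, with 132202 and 110938 normalized counts in siControl, 264478 and 334324 with siADAR1 #1, and 40442 and 51273 with siADAR1 #2. MCAM (1.97), an adhesion molecule, CA2 (1.25), a carbonic anhydrase, and MATN3 (1.80), a matrix protein, also rose with siADAR1 #1 and fell with siADAR1 #2.

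The reverse order held for COL8A1, a collagen of basement membranes, with 522 and 466 normalized counts in siControl, 186 and 165 with siADAR1 #1 and 9212 and 6940 with siADAR1 #2. Its log2FC was -1.48 ± 0.18 with siADAR1 #1 and 4.01 with siADAR1 #2. XDH (-2.22), xanthine dehydrogenase, FGF1 (-1.96), a fibroblast growth factor, and TNFSF18 (-2.08), a TNF ligand, fell with siADAR1 #1 and rose with siADAR1 #2. Among lysosome and autophagy genes, TFE3 (-1.12), a transcription factor for lysosomal genes, was opposite, whereas GABARAPL1 (1.06), which takes part in autophagosome formation, rose with both.

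**Figure D4:**
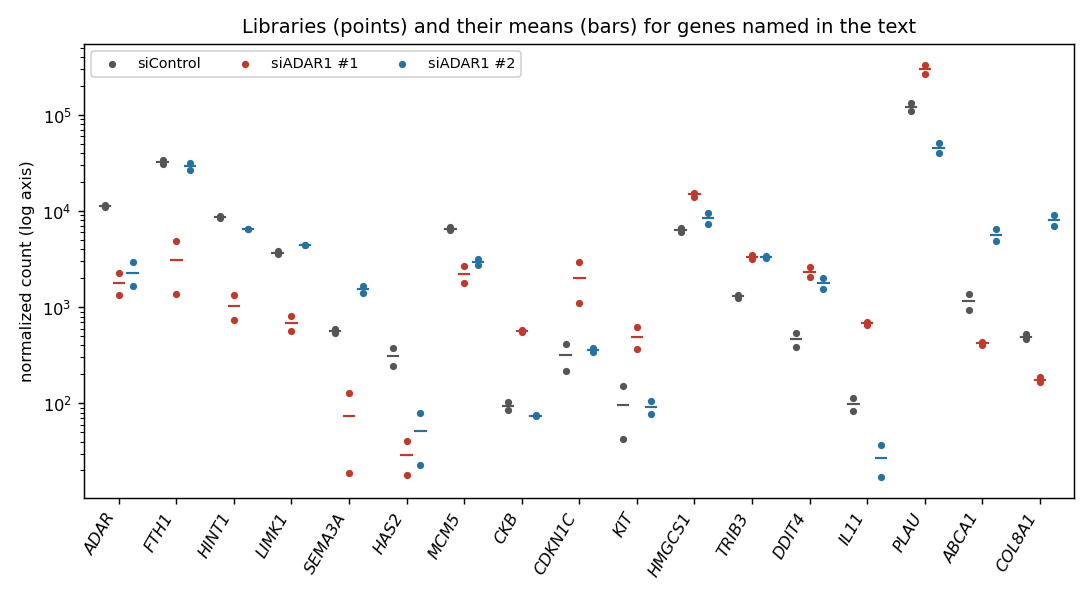
Points give the normalized count (log axis) of each library and short bars the mean of 2 libraries for 17 genes named in the text. ADAR to MCM5 lie lower with siADAR1 #1 than in siControl and CKB to DDIT4 higher, and for IL11, PLAU, ABCA1 and COL8A1 siControl lies between the siRNAs.

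Interferon-stimulated genes differed widely between replicates. Of 49 such genes, 0 were called, 2 had an unadjusted p-value under 0.05, and voom on whole reads also called 0, although 45 had a log2FC above 0 and the list median was 0.70. The fit with a replicate block changed this call, with 18 of the 49 genes upregulated, among them OASL (2.02, adjusted p = 0.00115, limma) and IFIT2 (1.64, adjusted p = 0.00141, limma). IFIT1, an RNA-binding effector, had 293 and 1253 normalized counts in siControl, 419 and 5016 with siADAR1 #1, and 2261 and 16846 with siADAR1 #2. Replicate 2 lay above replicate 1 for 45 of the 49 genes in siControl and for all 49 with siADAR1 #1 and in siADAR1 #2, against 40.8%, 54.8% and 51.2% of all genes tested. Set against the siControl library of the same number, siADAR1 #1 was higher for 29 of 49 genes in replicate 1 (median log2 ratio 0.24) and for 49 of 49 in replicate 2 (median 1.45). Without siADAR1 #1 replicate 2 the median of the list was -0.25, and without siADAR1 #1 replicate 1 it was 1.79.

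**Figure D5:**
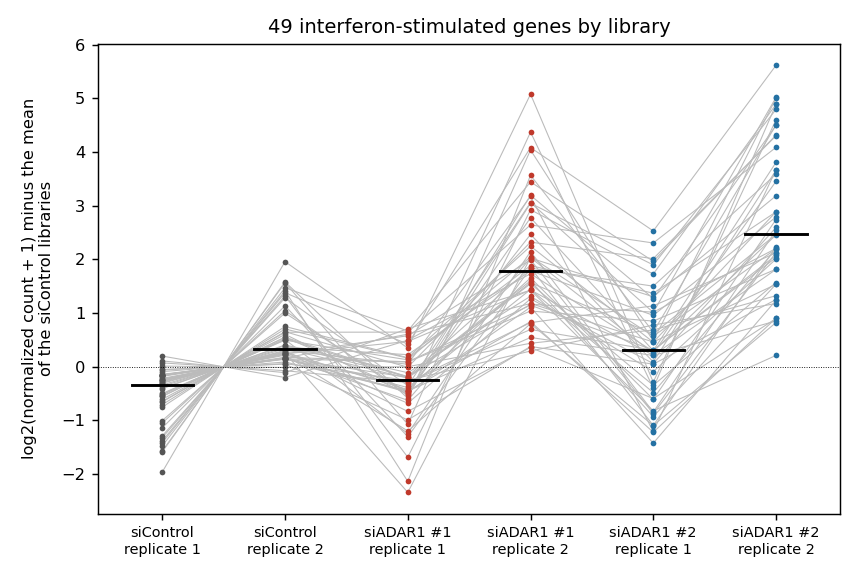
Each point is 1 of 49 interferon-stimulated genes in 1 library, as log2 of the normalized count plus 1 minus the mean of that gene in the siControl libraries; grey lines join a gene and black bars give the median. The replicate 2 libraries of siADAR1 #1 and siADAR1 #2 have the highest medians.

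Among sensors of double-stranded RNA and their adaptors, 1 of 26 rose and 2 fell, and 3 rose in the fit with a replicate block. The called members made up 11.5% of this list, below the 16.8% of all genes tested and the 21.5% of the protein-coding ones. NLRP1, an inflammasome sensor, had 47.9 and 62.2 normalized counts in siControl, 348 and 259 with siADAR1 #1 and 137 and 117 with siADAR1 #2. STAU1, which binds double-stranded RNA in 3′ UTRs, fell by 1.18 and was absent with siADAR1 #2. Of 29 cytokines, chemokines and NF-kappaB feedback genes, 4 rose and 0 fell, which is 13.8% and also below the share of all genes. The rises were those of IL11, CXCL16 (1.31), NFKB2 (1.25) and RELA (0.59), and those other than IL11 were absent with siADAR1 #2. The rises numbered 0 without siControl replicate 1, 1 without siControl replicate 2 and 13 without siADAR1 #1 replicate 1, and 16 in the fit with a replicate block.

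Regulators of cell death moved in both directions, with 9 of 37 BCL2 family, caspase and inhibitor genes upregulated and 5 downregulated, and a list median of 0.00. The rises numbered 2 without siControl replicate 1, 3 without siControl replicate 2 and 5 without siADAR1 #1 replicate 1, and the falls 0, 0 and 2. MCL1 and XIAP (0.67), both inhibitors of death, rose and were absent with siADAR1 #2. BCL2 fell by 1.01 and was absent with siADAR1 #2, whereas the proapoptotic gene BAD (-1.29) fell with both siRNAs. CASP4, a sensor of cytosolic lipopolysaccharide, had 1957 and 2304 normalized counts in siControl, 732 and 1339 with siADAR1 #1 and 7663 and 7409 with siADAR1 #2. Of 29 targets of p53, 6 rose and 4 fell (median 0.04), with TP53INP1 (1.95), an autophagy regulator, shared and the death receptor gene FAS (-1.16) absent with siADAR1 #2. Called members made up 37.8% of the cell death list and 34.5% of the p53 list. The share was 16.8% for all genes tested and 21.5% for the protein-coding ones.

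Of 48 WNT and NOTCH genes, 7 rose and 8 fell, against 0 and 0 without siControl replicate 1 and 2 and 5 without either siControl replicate 2 or siADAR1 #1 replicate 1. DLL1, a NOTCH ligand, had 6.53 and 4.08 normalized counts in siControl, 53.3 and 35.2 with siADAR1 #1, and 1049 and 429 with siADAR1 #2, so that it rose with both siRNAs to levels far apart. DLL4, a further NOTCH ligand, rose by 2.78, and RBPJ, the DNA-binding partner of NOTCH, by 1.14, both absent with siADAR1 #2. The WNT coreceptor gene LRP5 fell by 1.32 and was absent with siADAR1 #2, and the receptor gene FZD8 fell with both (-1.47 and -1.59). Called members made up 31.2% of the WNT and NOTCH list, beside 16.8% of all genes tested and 21.5% of the protein-coding ones.

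Of 40 genes of TGF-beta and BMP signaling, 5 rose and 7 fell. The receptor genes ACVR1B (1.03) and ACVR1 (0.52) rose, and the targets PMEPA1 (-2.03) and ID1 (-1.85) fell with both siRNAs. Of 34 genes of the unfolded protein response, 4 rose and 3 fell, with HERPUD1 (0.92), a part of the degradation complex of the endoplasmic reticulum, shared and ERO1B (1.11), an oxidase, absent with siADAR1 #2. Of 53 Polycomb and histone methylation genes, 6 rose and 8 fell, among which EZH2 (-0.86), the methyltransferase of Polycomb, and UHRF1 (-1.04) were shared and DNMT3B (1.28), a DNA methyltransferase, was absent with siADAR1 #2. Of 22 circadian clock genes, 4 fell and 0 rose, with BMAL1 (-1.24), the activator of the clock, absent and PER3 (-1.48) shared. These lists had medians between -0.31 and 0.05 beside -0.02 for all genes. Their counts can be read against the 6.18% of all genes that were upregulated and the 10.6% that were downregulated. The called members made up 30% of the TGF-beta list, 20.6% of the unfolded protein response list, 26.4% of the Polycomb list and 18.2% of the clock list. Of all genes 16.8% were called, and of the protein-coding genes 21.5%, which is above the shares of the unfolded protein response and clock lists. With the replicate number as a block 2 clock genes rose, and without siControl replicate 1 the counts of these lists in the same order were 2 and 4, 0 and 0, 0 and 1, and 0 and 2 rises and falls.

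Other upregulated genes, from large to modest rises, were shared between the siRNAs. AOC3, a cell surface amine oxidase, had 21.8 and 33.7 normalized counts in siControl, 241 and 160 with siADAR1 #1 and 170 and 104 with siADAR1 #2. KDM7A, a histone demethylase, rose by 2.06 and 1.10, SEC62, a part of the translocon, by 0.89 and 0.71, and the metallothionein gene MT1X, which has near-identical copies between which reads could be split, by 2.14 and 1.68 with siADAR1 #1 and siADAR1 #2.

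Among long noncoding RNA genes, CSNK1G2-AS1 had 7.62 and 12.2 normalized counts in siControl, 153 and 94.2 with siADAR1 #1, and 9.07 and 14.7 with siADAR1 #2. As the counting is not stated to use strand, its reads cannot be told apart from those of the gene on the other strand. SNHG15, a host of small nucleolar RNAs, rose by 0.97, with 1165 and 1153 normalized counts in siControl and 2285 and 2270 in siADAR1 #1. MIR100HG, the host gene of a microRNA cluster, fell by 1.32 with siADAR1 #1 and rose by 0.65 with siADAR1 #2.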

How the data were processed

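Poly(A) RNA-seq libraries from Cal62 cells were processed by the authors with bcbio-nextgen: reads were checked with FastQC, trimmed with Atropos and assigned to genes with featureCounts, and isoforms were quantified with Salmon. The deposited table holds log2 values that the authors normalized with DESeq2 and variance-stabilized. The submitters' processing notes name GRCh38, and the annotation release is not given in the sources used here. Each transfection has 1 GEO sample with 2 replicate columns, and the paper's methods describe the replicates as independent, so p-values measure the spread between these columns. Replicate numbers are given by the column names alone, and the labels do not say that a number marks a shared batch. The deviations of libraries with the same number correlated at 0.106 (siControl and siADAR1 #1), 0.110 (siControl and siADAR1 #2) and 0.162 (siADAR1 #1 and siADAR1 #2), so the fit with a replicate block is given beside the results that it changed.

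The transformation was inverted to normalized counts, and 100% of the values came out as whole reads after scaling (tolerance 0.1 reads). Rows were matched by Ensembl identifier to GENCODE 44 (GRCh38), which named 57830 of 58333 genes, and coordinates and 3′ UTRs are from it. Genes with a mean log2 value of at least log2 of 10 were kept, which is 7.617 normalized counts. The log2 values of all 6 libraries were fitted with limma 3.58.1 (R 4.3.3) as 3 groups with eBayes trend. P-values were adjusted by Benjamini-Hochberg over all genes tested. The steps were also run on simulated counts that held no replicate effect, and the outcome is not reported here. Errors are SE, with n = 2 libraries per group. Other steps used Python 3.11.15 and pandas 2.3.3.

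Named are ADAR, the 12 called protein-coding genes with the largest rise and the 12 with the largest fall, the 2 with the smallest adjusted p-value in each bin of size, the 8 per class and direction that best mark it, 5 long noncoding RNA genes per direction and the top 4 per direction in each list. Other genes, such as IFIT1, OASL, IFIT2, SQLE, CMIP, ZNF469 and C7orf50, were chosen after their values were seen. The members and lists were chosen with earlier results of these data known. Alternatives were the filter, the scaling, the eBayes options, voom on whole reads, the 4 libraries alone, a replicate block and leaving out each library. Some named genes are not reported here.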

Additional observations from a re-analysis of the deposited data

Results flagged for a closer look

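Flagged here are changes that differed between the siRNAs, by the test of siADAR1 #1 against siADAR1 #2 in the same limma fit. They include the 1443 genes absent and the 324 genes opposite with siADAR1 #2. Among the opposite genes, large positive differences (siADAR1 #1 minus siADAR1 #2, log2) were 10.165 for ENSG00000256500, 4.621 for IL11, 4.298 for ENSG00000283761, 4.282 for the histone gene H2BC11, 3.760 for CA2, 3.707 for MATN3 and 2.801 for MCAM. ENSG00000256500 and ENSG00000283761 are readthrough genes that overlap others, so their counts are uncertain, and the first had 0 normalized counts in both siADAR1 #2 libraries, so that its difference depends on the transformation of counts of 0 and is no bound. The largest negative differences were -5.988 for SCEL, -5.494 for COL8A1, -5.226 for ATP8A2, -5.041 for TNFSF18, -4.316 for XDH, -3.817 for TRIM55, -3.766 for FGF1 and -3.741 for ABCA1. SCEL, the cell envelope protein sciellin, had 126 and 55.1 normalized counts in siControl, 16.8 and 23.9 with siADAR1 #1, and 1548 and 1318 with siADAR1 #2. These genes were ranked by the difference itself, so its size is a description.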

How the results depend on the processing

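With 2 libraries per group, leaving out siControl replicate 1 left 188 upregulated and 204 downregulated genes, leaving out siControl replicate 2 left 386 and 862, and leaving out siADAR1 #1 replicate 1 left 456 and 956, against 1290 and 2212 with all libraries. Over all such fits, in which the lone library is assumed to vary like the other groups, upregulated genes ranged from 188 to 1237, downregulated genes from 204 to 2569, absent changes from 193 to 1602, shared changes from 122 to 1155 and opposite changes from 29 to 403. Without siADAR1 #2 replicate 1 the shared and opposite changes numbered 684 and 184. With eBayes without a trend 526 genes were upregulated and 821 downregulated, of which 629 were absent, 386 shared and 102 opposite with siADAR1 #2. Without a filter the opposite changes numbered 199, and with median centring 1951 genes were upregulated. The siADAR1 #1 and siControl libraries of called genes did not overlap, so leaving out 1 library could not turn a sign. The eBayes options and the replicate block also leave the log2FC unchanged, so a count of sign changes says little about these alternatives. Of the 305 named genes that were called, 0 changed sign under any alternative, 99 were still called without siControl replicate 1 and 156 without a trend. The upregulated targets of ATF4 numbered 12 and the downregulated origin licensing genes 0 without siControl replicate 1, against 23 and 11. With a replicate block 1532 genes were upregulated and 2554 downregulated, and 18 of the 49 interferon-stimulated genes and 16 of the 29 cytokine genes were upregulated, against 0 and 4. The block also moved the glycolysis genes from 1 to 2 rises and from 2 to 4 falls. The deviations of libraries with the same number correlated over 0.1 in all 3 pairs of groups, at 0.106, 0.110 and 0.162. The causes were not tested. Depth limits the genes near the filter, where 3 reads are up to 4.39 normalized counts.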

Other observations

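Further lists are described by their called members with siADAR1 #1, beside 6.18% of all genes upregulated and 10.6% downregulated. Of 24 small RNA processing and Argonaute genes, 4 fell and 0 rose, among them MOV10 (-1.29), a helicase, and DROSHA (-0.67), the nuclease that cuts primary microRNAs. Of 30 cell-type splicing regulators, 3 rose and 5 fell, with PTBP2 (1.47), the neuronal relative of PTBP1, absent with siADAR1 #2 and MBNL1 (-0.69) shared. Of 42 transcriptional CDK, Mediator and elongation genes, 3 rose and 2 fell, led by CCNC (0.93), the cyclin of the Mediator kinase module. Of 24 cytosolic aminoacyl-tRNA synthetases, 5 rose and 1 fell, with WARS1 (0.93) and GARS1 (0.75) shared. Of 26 glycolysis genes, PFKL (-1.45) and ENO1 (-0.73) fell and PDK1 (0.84) rose. Of 29 epithelial junction genes, CLDN1 (1.66) rose with both siRNAs, whereas F11R (-1.76), a junctional adhesion molecule, and KRT7 (1.01), a keratin, went opposite ways with the siRNAs. Of 19 mesenchymal state genes, 2 rose and 5 fell, with the rise of NT5E (0.96) absent with siADAR1 #2 and the fall of TWIST2 (-1.93) shared. Called members made up 16.7% of the small RNA list, 26.7% of the splicing list, 11.9% of the transcriptional CDK list and 25% of the synthetase list. In the glycolysis, junction and mesenchymal lists the shares were 11.5%, 13.8% and 36.8%. Of all genes 16.8% were called, and of the protein-coding genes 21.5%. The small RNA list thus lay near the share of all genes, and the transcriptional CDK, glycolysis and junction lists lay below it. All values in brackets are log2FC of siADAR1 #1 against siControl.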
